A study of Sus scrofa with 220 samples.

Results

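DNMT3A, DNMT3B and HELLS, 3 genes of de novo DNA methylation, were followed through 7 cell groups of the early pig embryo. They were chosen by symbol, and 4 of the 22840 gene entries of the deposited files carry 1 of these symbols. DNMT3A has an Ensembl entry, ENSSSCG00000029413, and a second entry that the study added, SscS36162731_Dnmt3a. DNMT3B is ENSSSCG00000007252 and HELLS is ENSSSCG00000010486. All 4 entries passed the filter of a TPM (a level corrected for gene length and depth) over 1 in at least 3 cells, as did 14721 entries in all.

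The transcriptomes were Smart-seq2 profiles of 220 hand-picked single cells from 28 pig embryos, collected without any treatment from inseminated crossbred Large White and Landrace sows. The morula (M), before any lineage has separated, gave 47 cells, 46 of them from 8 embryos and 1 without a known embryo. Early blastocysts (EB) gave 24 cells of the inner cell mass (ICM) from 7 embryos and 28 cells of the trophectoderm (TE), the outer layer that forms the placenta, from 10 embryos. Late blastocysts (LB) gave 25 cells of the epiblast (EPI), which forms the body of the embryo, from 4 embryos and 36 cells of the hypoblast (HYPO), which lines the yolk sac, from 5 embryos. Spherical embryos (Sph) were sampled with 48 cells of EPI in 4 embryos and 12 of HYPO in 3. TE was taken off the late blastocysts by immunosurgery and was not sampled at the LB and Sph stages. The EPI and HYPO of spherical embryos were separated by hand. The study inferred the sex of each cell from the expression of Y chromosome genes. By its account most TE and LB HYPO cells were female. Most M, ICM and Sph EPI cells and all Sph HYPO cells were male, and LB EPI was near even. The share of each sex thus differed between ICM and TE and between LB EPI and LB HYPO, among others. Sex was not entered in any model here, and its part in the results was not tested. Early blastocysts were dissociated after removal of the zona, and no separation of ICM from TE before that is described. The study also grouped the cells of all stages by their own transcriptomes with all expressed genes, the 3 genes among them. Differences between lineages, those of ICM with TE included, are thus not independent of that grouping.

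DNA methylation is removed from most of the genome in the cleavage embryo and is laid down again as the epiblast forms. DNMT3A and DNMT3B are the enzymes that write methyl groups on CpG sites with no methylated partner strand. HELLS (also called LSH) is a chromatin remodeller of the SNF2 family that opens nucleosomal DNA to these enzymes, and loss of DNMT3B or HELLS in people gives a syndrome of immunodeficiency with unstable centromeric repeats. DNMT1 and UHRF1 then copy existing methylation at each replication, and the TET enzymes oxidise it.

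A cell held 1012604 to 5696373 gene counts (median 2006853). The cells that an embryo contributed to a lineage were added together into 41 sums, of which 6 hold a single cell. The TE and HYPO markers set groups apart by their medians. The summed level of 6 TE markers had a median of 43914 CPM (counts scaled to the library total) in TE against 309 in ICM. For 6 HYPO markers the median was 6917 in LB HYPO against 95.1 in LB EPI. The 6 ICM and EPI markers overlapped between the early groups. They ran from 33.2 to 199 CPM in ICM (median 126), from 0 to 161 in TE (31.1) and from 0.16 to 154 in M (67.1). In LB EPI their median was 403 against 0.56 in LB HYPO. TE markers were also high in Sph HYPO, at a median of 29489 CPM, through the keratins KRT8 and KRT18. Their medians in LB EPI and Sph EPI were 4401 and 8889 CPM. The single-cell TE sum E6-ER went against its label, since GATA2, GATA3, DAB2 and KRT8 were at 0 in it. Its TE markers summed to 225 CPM, and it gave the top TE value of 161 CPM for the ICM and EPI markers. The contrasts of ICM with TE are given with and without it, while the levels, TPM values and shares of TE include it. That cell is also 1 of 2 whose embryo is less certain.

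Both DNMT3A entries were detected in nearly the same cells. Reads were present in both entries in 174 cells, in neither in 45 cells and in the Ensembl entry alone in 1 cell, which held 6 counts. The added entry held 111846 counts against 56413 in the Ensembl entry, and the median ratio per cell was 2.00, with a range from 0.356 to 2.25. In 150 of the 174 cells the ratio was at least 1.9. All 957 nonzero values of the 16 added entries were even numbers, against 48.1% of nonzero values in the Ensembl entries, and the added total divided by 2 came to 55923. Across cells the log2 counts of both entries correlated at r = 0.996 (Pearson), a description in which every point shares its library. The added entry was not used as a second line of evidence, and the cause of the doubled counts was not tested. DNMT3A below means the Ensembl entry unless the added entry is named.

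**Figure D1:**
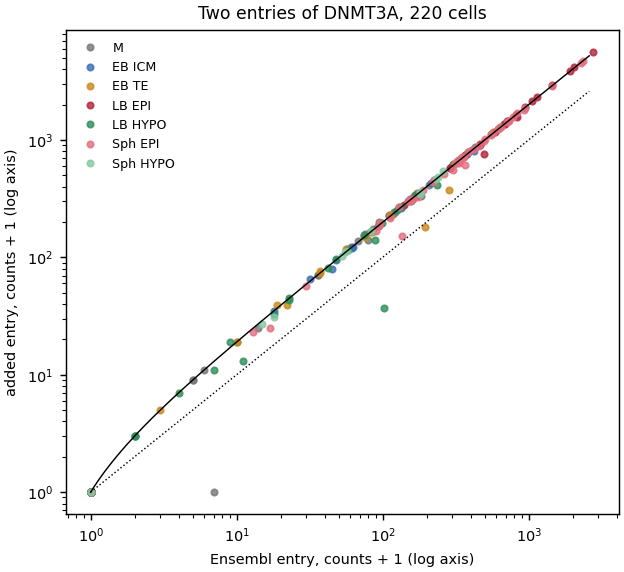
Counts of the DNMT3A entry added by the study against those of the Ensembl entry, each plus 1 on log axes, 1 point per cell, coloured by group. The solid line marks an added count of 2 times the Ensembl count and the dotted line equal counts. Most of the 174 cells with reads in both entries lie near the solid line, 25 of them exactly on it, with a median ratio of 2.00.

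DNMT3A was highest in EPI and spread widely in every other group. Levels are log2(CPM + 1) after TMM scaling (a correction for library composition) over all 41 sums, so they compare groups for 1 gene but not genes with each other. In LB EPI the 4 embryos stood at 7.25, 8.02, 8.81 and 9.09, a mean of 8.29 ± 0.83 (SD, n = 4). In Sph EPI they stood at 6.83, 7.86, 8.08 and 8.17, a mean of 7.74 ± 0.62 (SD, n = 4). The lowest embryo of each EPI stage, LB EPI AN and Sph EPI F, lay inside the range of ICM. ICM ran from 2.67 through a median of 6.43 to 7.62 in 7 embryos, and M from 1.10 through 5.35 to 6.48 in 8 embryos. In TE the range was 0 to 6.67 with a median of 3.58, and 3 of the 10 embryos held no count. LB HYPO had 1 embryo at 0, 1 at 0.88 and 3 between 5.35 and 6.08, and Sph HYPO stood at 3.19, 6.05 and 6.42.

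By mean level the order for DNMT3A was LB EPI, Sph EPI, ICM, Sph HYPO, M, LB HYPO and TE. The only step in it wider than the SD of both neighbours was from Sph EPI to ICM, a gap of 2.23, and even there the embryos overlapped. The added entry gave the same order, with means of 9.28 ± 0.84 in LB EPI and 8.72 ± 0.63 in Sph EPI (SD, n = 4 each).

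DNMT3B ran from 0 in embryos of M, TE and Sph HYPO to 11.24 in an LB EPI embryo. It was at 8.98, 9.79, 10.76 and 11.24 in the 4 LB EPI embryos, a mean of 10.19 ± 1.01 (SD, n = 4), and at 9.92, 10.21, 10.39 and 10.42 in the 4 Sph EPI embryos, a mean of 10.24 ± 0.23 (SD, n = 4). No embryo of any other group reached the lowest of these 8 values. LB HYPO came next at 5.87, 5.91, 7.29, 7.30 and 8.11, a mean of 6.90 ± 0.97 (SD, n = 5). ICM ran from 3.35 through a median of 4.93 to 6.79, and M from 0 through 4.02 to 6.16. Sph HYPO was split, with embryo C at 0, E at 5.49 and F at 7.06. TE had the lowest mean, 2.80 ± 2.67 (SD, n = 10), with 3 embryos at 0, a median of 3.47, and its highest value, 7.72, in E6-ER.

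In the order of means for DNMT3B, Sph EPI and LB EPI were level, with a gap of 0.043, and then came LB HYPO, ICM, Sph HYPO, M and TE. The step from LB EPI to LB HYPO, 3.30, was wider than either SD and without overlap. The step from LB HYPO to ICM, 1.70, was wider than either SD but the embryos overlapped, and the remaining steps lay within the SD of at least 1 neighbour.

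HELLS was present in every embryo of every group. Its 4 LB EPI embryos lay at 10.79, 11.03, 11.42 and 11.48, a mean of 11.18 ± 0.33 (SD, n = 4). The 4 Sph EPI embryos fell into a lower and a higher pair, 9.91 and 9.93 in C and E against 10.87 and 10.97 in D and F. All 8 EPI embryos were above every other embryo. ICM was tight around 8.26 ± 0.38 (SD, n = 7) and M around 7.43 ± 0.44 (SD, n = 8). TE ran from 5.11 through 7.97 to 8.63, Sph HYPO stood at 5.67, 6.77 and 8.26, and LB HYPO was the lowest group at 3.87, 4.77, 6.73, 6.75 and 8.09.

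For HELLS the order of means was LB EPI, Sph EPI, ICM, TE, M, Sph HYPO and LB HYPO. Sph EPI and ICM were separated by 2.16 without overlap. LB EPI exceeded Sph EPI by 0.76, more than either SD but with overlapping embryos. Every lower step lay within the SD of at least 1 neighbour.

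**Figure D2:**
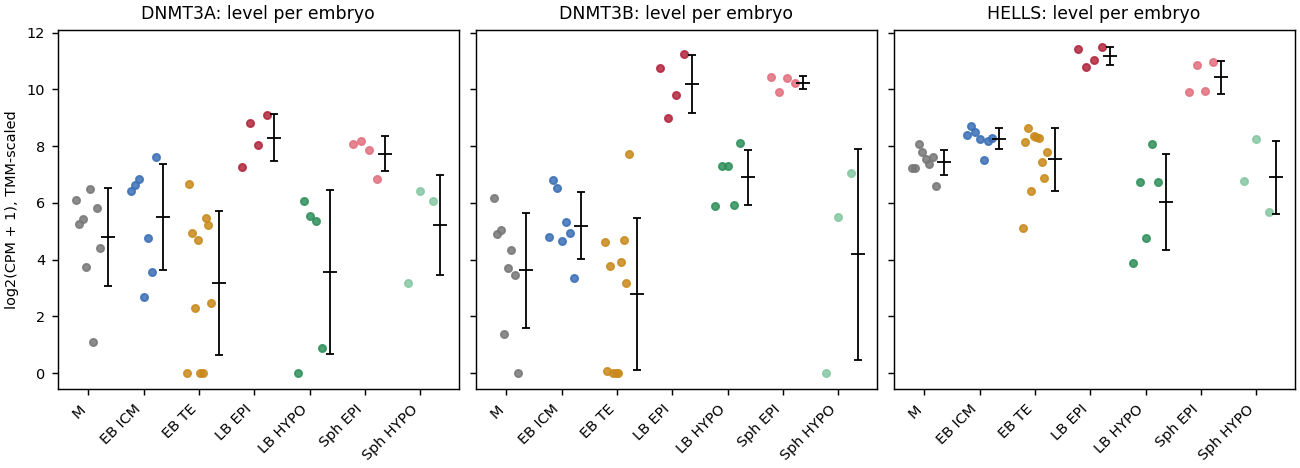
Level of DNMT3A (Ensembl entry), DNMT3B and HELLS as log2(CPM + 1) after TMM scaling, 1 point per embryo in each group, with the mean and SD beside the points. DNMT3B and HELLS in the 8 EPI embryos lie above every other embryo, while DNMT3A in Sph EPI F, at 6.83, and in LB EPI AN, at 7.25, lies within the range of ICM.

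On the length-corrected TPM scale genes can be compared. With DNMT3A read from its Ensembl entry, it was the more abundant methyltransferase in most early embryos, and DNMT3B was in most EPI embryos. Mean TPM per embryo was 30.8 ± 31.4 for DNMT3A and 9.67 ± 10.7 for DNMT3B in M (SD, n = 8), and 55.6 ± 53.4 and 21.1 ± 16.9 in ICM (SD, n = 7). In LB EPI it was 234 ± 95.4 for DNMT3A and 615 ± 373 for DNMT3B (SD, n = 4), and in Sph EPI 130 ± 47.7 and 463 ± 74.3 (SD, n = 4). DNMT3B thus exceeded DNMT3A in 1 of 8 M embryos and 2 of 7 ICM embryos, but in 3 of 4 LB EPI, 4 of 4 Sph EPI and 4 of 5 LB HYPO embryos. In TE it did so in 3 of 10 embryos and in Sph HYPO in 1 of 3. With the added DNMT3A entry the order turned toward DNMT3A in LB EPI AP, at 422 against 408 TPM for DNMT3B. It also turned in LB HYPO AM (63.8 against 58.7), ICM AG (20.9 against 18.7) and Sph HYPO F (76.1 against 47.5). These orders rest on the gene models in use, in which DNMT3B is 1.57 times and HELLS 1.9 times as long as DNMT3A, as counts and TPM imply.

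HELLS had the highest mean TPM of the 3 genes before EPI formed, with DNMT3A read from its Ensembl entry. Its mean TPM per embryo was 59.0 ± 13.8 in M (SD, n = 8), 114 ± 24.9 in ICM (SD, n = 7) and 81.0 ± 40.2 in TE (SD, n = 10), and it exceeded DNMT3B in 8 of 8, 7 of 7 and 8 of 10 embryos and DNMT3A in 7 of 8, 6 of 7 and 10 of 10. With the added DNMT3A entry the order in M turns, since that entry had a mean of 61.9 ± 63.7 TPM (SD, n = 8). In LB EPI it reached 842 ± 242 and in Sph EPI 466 ± 163 (SD, n = 4 each), above DNMT3B in 3 of 4 and in 2 of 4 embryos. LB HYPO was the group with the opposite order, where HELLS was at 35.2 ± 32 and DNMT3B at 59.4 ± 38.1 (SD, n = 5), and HELLS exceeded DNMT3B in 1 of 5 embryos. In Sph HYPO the means were 49.7 ± 40.1 for HELLS, 22.4 ± 23.9 for DNMT3B and 32 ± 24.3 for DNMT3A (SD, n = 3). The added DNMT3A entry had a mean of 64.2 ± 49.8 TPM there (SD, n = 3), above that of HELLS.

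At the level of cells, the 3 genes were detected together in EPI and patchily elsewhere. All 3 had a TPM over 1 in 25 of 25 LB EPI cells and 47 of 48 Sph EPI cells, the exception being a Sph EPI cell of embryo C without DNMT3A. The same held for 9 of 47 cells in M, 11 of 24 in ICM, 4 of 28 in TE, 19 of 36 in LB HYPO and 7 of 12 in Sph HYPO. Cells with none of the 3 over TPM 1 were found in TE, where there were 2, and in LB HYPO, where there were 3. In M, ICM, TE and Sph HYPO, DNMT3B was the gene over TPM 1 in the fewest cells, and in LB HYPO DNMT3A was.

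DNMT3B passed TPM 1 in 31.9% of M cells (95% exact Clopper-Pearson interval 19.1 to 47.1), 12 of 24 ICM cells (interval 29.1% to 70.9%) and 21.4% of TE cells (8.30% to 41%). It passed in 27 of 36 LB HYPO cells (57.8% to 87.9%), in 9 of 12 Sph HYPO cells (42.8% to 94.5%) and in every EPI cell. Where each cell was thinned to 1000000 reads, which left out no cell, at least 1 DNMT3B read turned up in 88.9% of the LB HYPO cells, 83.3% of the Sph HYPO cells, 54.2% of the ICM cells, 40.4% of the M cells and 21.4% of the TE cells. Without thinning the TE share was 32.1% and the other 4 shares were the same. The intervals treat cells as independent draws, although cells share embryos (8 of the 12 Sph HYPO cells came from embryo F), so they cover counting error only and are too narrow for a difference between embryos. Amplified reads are not independent molecules either.

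DNMT3A was over TPM 1 in 61.7% of M cells (interval 46.4 to 75.5), 70.8% of ICM (48.9 to 87.4), 60.7% of TE (40.6 to 78.5), 66.7% of LB HYPO (49.0 to 81.4) and 91.7% of Sph HYPO cells (61.5 to 99.8). HELLS was over TPM 1 in 46 of 47 M cells, 24 of 24 ICM cells, 24 of 28 TE cells, 33 of 36 LB HYPO cells and 10 of 12 Sph HYPO cells. In HYPO many of these HELLS values were low. The median HELLS cell had 23.3 TPM in LB HYPO and 3.89 TPM in Sph HYPO, against 835 in LB EPI, 454 in Sph EPI, 98.6 in ICM, 73.2 in TE and 48.9 in M. At a threshold of TPM 5 the share with HELLS dropped to 41.7% in Sph HYPO (15.2 to 72.3) and stayed at 95.7% in M (85.5 to 99.5).

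The median DNMT3B cell had 569 TPM in LB EPI and 383 TPM in Sph EPI, 27.4 in LB HYPO, 25.1 in Sph HYPO, 2.51 in ICM and 0 in M and TE. The quartiles were 213 and 909 TPM in LB EPI and 273 and 597 TPM in Sph EPI. The range among LB EPI cells, from 67.6 to 1760 TPM, lay above the highest M cell, 66.0 TPM, and overlapped with the top of ICM, 103 TPM, of TE, 127 TPM, of Sph HYPO, 95.6 TPM, and of LB HYPO, 150 TPM. For DNMT3A the median cell had 256 TPM in LB EPI, 94.0 in Sph EPI, 29.4 in Sph HYPO, 24.5 in ICM, 13.9 in M, 8.36 in TE and 5.73 in LB HYPO.

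**Figure D3:**
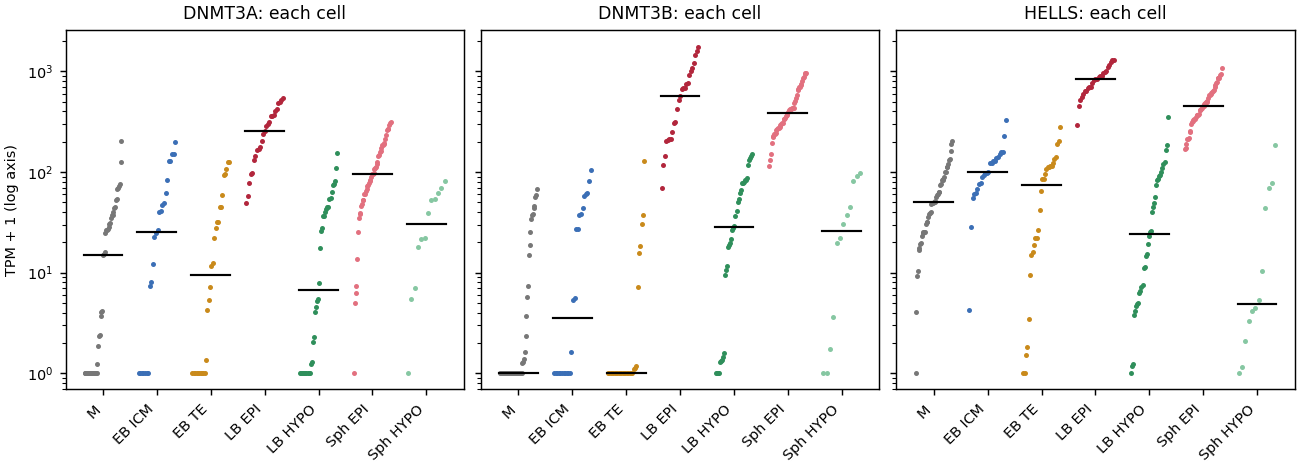
TPM + 1 on a log axis in each of the 220 cells, sorted within each group, for DNMT3A (Ensembl entry), DNMT3B and HELLS, with a bar at the median cell. EPI cells lie high for all 3 genes with 1 DNMT3A cell at 0, the median DNMT3B cell of M and of TE is at 0, and the median HELLS cell of Sph HYPO is at 3.89 TPM.

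The course from the naive-like cells of the morula and ICM to EPI was compared first. The study singled these genes out in the same cells for a rise in EPI, so the contrasts of M or ICM with EPI are not independent evidence of its direction. Tests were made with edgeR's quasi-likelihood test on the sums with Benjamini-Hochberg adjustment over all 14721 entries, a call is an adjusted p under 0.05, and log2 fold changes above 0 mean a higher level in the first group. Residual spread is that between these sums, and which embryos shared a mother is not given in the sources used here.

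From ICM to LB EPI, DNMT3B and HELLS rose and DNMT3A did not pass the test. DNMT3B was 29.9-fold higher in LB EPI, a log2 fold change for ICM over LB EPI of −4.90 ± 0.60 (SE) with an edgeR adjusted p of 0.000306. HELLS was 7.67-fold higher, at −2.94 ± 0.23 (SE) with an adjusted p of 5.36e-06. DNMT3A stood at −2.22 ± 0.75 (SE) with an adjusted p of 0.128. In this comparison 2.91% of all entries were called, and the median of all entries was −0.11. DNMT3B and HELLS were among the 4.06% of entries whose embryos were higher in LB EPI without overlap. Of the 6 TE markers, KRT8 and KRT18 were also called as higher in LB EPI than in ICM and the other 4 were not called, and the part of these markers in the result was not tested. The cells fall into 8 pools, read here from a number in each library name. Within the first 4 of these pools alone the DNMT3B value was −4.92 with an edgeR adjusted p of 0.0990.

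ICM against Sph EPI, which shares the ICM sums, gave −4.70 ± 0.54 (SE) for DNMT3B with an edgeR adjusted p of 0.000115 and −2.22 ± 0.27 (SE) for HELLS with an adjusted p of 0.000192. Both rose, by 26-fold and 4.65-fold, and were among the 7.83% of entries higher in Sph EPI without overlap. DNMT3A was at −1.56 ± 0.75 (SE) with an adjusted p of 0.195, and its embryos overlapped. Of all entries 6.73% were called, around a median of −0.30. KRT8 and KRT18, again 2 of the 6 TE markers, were called as higher in Sph EPI too, and their part in the result was not tested. In the first 4 pools alone DNMT3B was at −4.52 with an adjusted p of 0.0633.

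When M and ICM together were set against both EPI stages, all 3 genes rose. DNMT3B was 40.8-fold higher in EPI, at −5.35 ± 0.61 (SE) with an edgeR adjusted p of 6.48e-07. HELLS was 7.85-fold higher, at −2.97 ± 0.19 (SE) with an adjusted p of 1.75e-11, the entry with rank 6 by p among 14721. DNMT3A was 5.13-fold higher, at −2.36 ± 0.53 (SE) with an adjusted p of 0.00262. Here 21.8% of all entries were called and 14.3% were called as higher in EPI, so a call alone sets none of the 3 apart. DNMT3B and HELLS, but not DNMT3A, belonged to the 1.3% of entries higher in every EPI embryo than in any M or ICM embryo. The DNMT3A call was lost in the first 4 pools alone, where the value was −2.15 with an adjusted p of 0.104.

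Between M and ICM none of the 3 passed the test, and all 3 estimates were lower in M, although DNMT3A turned to 0.38 in the last 4 pools alone. For DNMT3A the log2 fold change for M over ICM was −0.96 ± 0.78 (SE), for DNMT3B −1.18 ± 0.93 (SE) and for HELLS −0.88 ± 0.26 (SE), with edgeR adjusted p of 0.557, 0.540 and 0.0784, where 2.45% of entries were called. HELLS alone had an unadjusted p under 0.05, at 0.0033. HELLS was called here by DESeq2, at −0.91 with an adjusted p of 0.00246, and by limma on log2(TPM + 1), at −1.32 with an adjusted p of 0.0118.

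Between LB EPI and Sph EPI none of the 3 was called. The log2 fold change for LB over Sph was 0.70 ± 0.43 (SE) for DNMT3A, 0.25 ± 0.39 (SE) for DNMT3B and 0.78 ± 0.28 (SE) for HELLS, with edgeR adjusted p of 0.513, 0.896 and 0.346 and, for HELLS alone, an unadjusted p under 0.05, at 0.0168. In this comparison 0.156% of entries were called. The DNMT3B estimate changed sign, to −0.18, without the LB EPI embryo AQ.

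**Figure D4:**
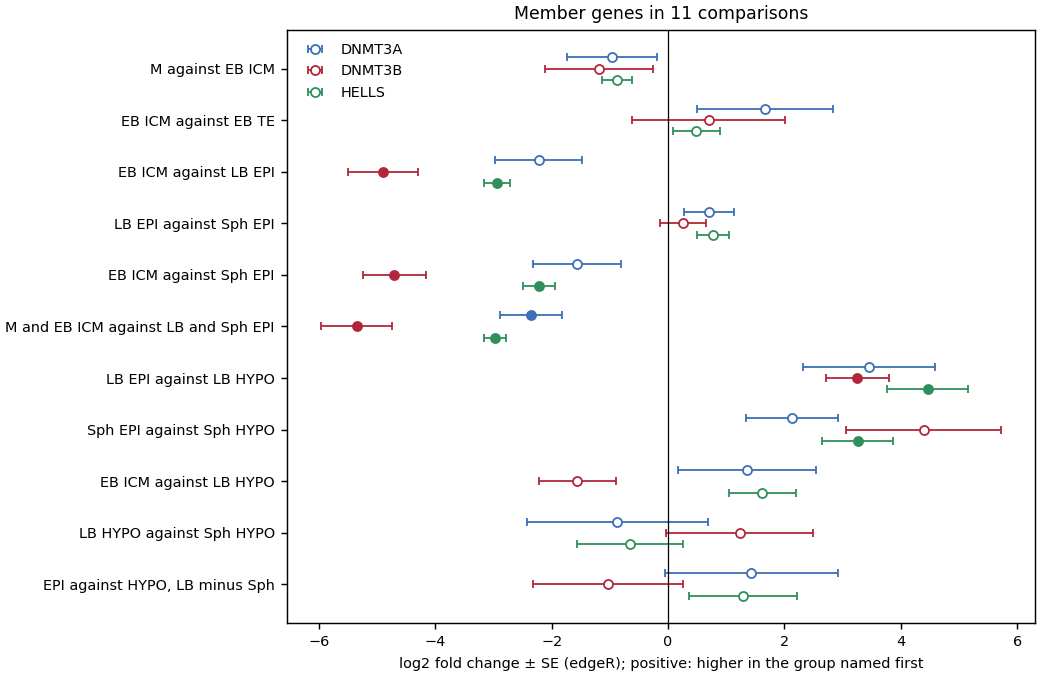
Log2 fold change ± SE from edgeR for DNMT3A (Ensembl entry), DNMT3B and HELLS in 11 comparisons; positive values are higher in the group named first and filled points have an adjusted p under 0.05. DNMT3B and HELLS are called in each comparison of ICM with EPI, DNMT3A is called once, for M and ICM against EPI, and no gene is called between M and ICM, ICM and TE, or the stages of 1 lineage.

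In the early blastocyst none of the 3 genes passed the test between ICM and TE. The log2 fold change for ICM over TE was 1.66 ± 1.16 (SE) for DNMT3A, 0.69 ± 1.32 (SE) for DNMT3B and 0.48 ± 0.41 (SE) for HELLS, with edgeR adjusted p of 0.619, 1.0 and 0.748, and 0.754% of all entries were called. Without the TE sum E6-ER, DNMT3B stood at 2.33 with an adjusted p of 0.363, DNMT3A at 1.53 with 0.654 and HELLS at 0.47 with 0.722. In the last 4 pools alone DNMT3A was at −0.29 and DNMT3B at −0.078.

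In the 7 embryos that gave both lineages, the level of DNMT3B was higher in ICM in 7 of 7, by 0.18 to 6.54 on the log2(CPM + 1) scale with a median of 3.02. DNMT3A was higher in ICM in 6 of 7 with a median difference of 3.57, and HELLS in 4 of 7 with a median difference of 0.079. In these pairs the ICM sums AD and AI and the TE sums AF and AG hold a single cell each. The TE sums of AD, AE and AF held no DNMT3B count. The same count of pairs was not made over all entries. With the embryo as a block none of the 3 was called.

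EPI and HYPO of the late blastocyst differed in DNMT3B and HELLS. DNMT3B was 9.53-fold higher in EPI, at 3.25 ± 0.55 (SE) on the log2 scale with an edgeR adjusted p of 0.00895. HELLS was 22-fold higher, at 4.46 ± 0.69 (SE) with an adjusted p of 0.00567, and at 5.18 without LB HYPO AO. DNMT3A was at 3.45 ± 1.13 (SE) with an adjusted p of 0.167, although its embryos, like those of the other two, did not overlap. Of all entries 1.92% were called and 4.73% were higher in EPI without overlap. DNMT3A was called by DESeq2, at 3.66 with an adjusted p of 0.0347, and by limma, at 5.44 with an adjusted p of 0.0139.

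Embryos AN, AO and AP gave both lineages at this stage. Each of the 3 genes was higher in EPI in 3 of 3, which follows from the lack of overlap and adds nothing to it. The differences in level ran from 1.68 to 3.47 for DNMT3B, from 2.70 to 6.65 for HELLS and from 1.70 to 7.14 for DNMT3A. With the embryo as a block, the fit that matches this pairing, DNMT3B was at 2.73 with an edgeR adjusted p of 0.0588 and HELLS at 4.49 with an adjusted p of 0.0539, so neither was called, while the number of entries called fell from 283 to 20. With all 7 groups in 1 model DNMT3B was at 3.30 with an adjusted p of 0.219.

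In the spherical embryo HELLS was again higher in EPI, 9.55-fold, at 3.26 ± 0.61 (SE) with an edgeR adjusted p of 0.0300. DNMT3B was at 4.39 ± 1.32 (SE) and DNMT3A at 2.12 ± 0.79 (SE), with adjusted p of 0.171 and 0.263. Of all entries 1.13% were called, and the median of all entries was itself at 0.57. None of the 3 genes overlapped between the lineages, as was so for 11% of entries that were higher in EPI. DNMT3B was called without the HYPO sum of embryo C, whose 2 cells held no DNMT3B count, at 3.81 with an adjusted p of 0.0102. With that sum it was called by DESeq2, at 4.32 with an adjusted p of 0.0379, and in the last 4 pools alone, at 3.61 with an adjusted p of 0.0172.

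The HELLS call in the spherical embryo rested on few sums. It was lost without Sph HYPO C (3.06, edgeR adjusted p of 0.0968), without Sph EPI E (3.39, adjusted p of 0.0873) and without Sph EPI F (3.02, adjusted p of 0.0580), and in the last 4 pools alone (3.13, adjusted p of 0.0910). With the embryo as a block it held, at 3.37 with an adjusted p of 0.0491, while the number of entries called went from 167 to 82. In the 3 embryos with both lineages, each of the 3 genes was higher in EPI in 3 of 3, which again follows from the lack of overlap.

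A change of the EPI against HYPO difference from LB to Sph was tested as an interaction and was called for none of the 3. It was 1.43 ± 1.48 (SE) for DNMT3A, −1.04 ± 1.29 (SE) for DNMT3B and 1.29 ± 0.93 (SE) for HELLS, with edgeR adjusted p of 0.914, 0.979 and 0.731, where 0.0408% of entries were called and the median of all entries was −0.43.

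HYPO was also set against ICM, from which it derives. The estimates pointed apart: DNMT3B was higher in LB HYPO, at −1.56 ± 0.67 (SE) for ICM over LB HYPO, while HELLS was higher in ICM, at 1.62 ± 0.58 (SE), and DNMT3A at 1.35 ± 1.19 (SE). None was called, with edgeR adjusted p of 0.186, 0.148 and 0.631 and unadjusted p of 0.0318, 0.0125 and 0.271, and 2.1% of entries were called. HELLS was called by DESeq2, at 1.73 with an adjusted p of 0.0365, and by limma, at 2.80 with an adjusted p of 0.00374.

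Between LB HYPO and Sph HYPO the log2 fold change was −0.87 ± 1.56 (SE) for DNMT3A, 1.23 ± 1.27 (SE) for DNMT3B and −0.66 ± 0.91 (SE) for HELLS. No adjusted p was under 0.828 in edgeR, and 0.163% of entries were called. Sex went largely with stage in this comparison, and its part was not tested. The sign turned for DNMT3A in the first 4 pools, at 0.059, and for HELLS in the first 4 pools, at 0.044, by limma, at 0.27, and without Sph HYPO E, at 0.40.

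Other genes of DNA methylation were read from 6 lists of 48 symbols, of which 36 had an entry and passed the filter and 12 are not analysed here, TET2 and PCNA among them. In M and ICM against EPI, 6 of the 36 were called as higher in M and ICM and 5 as higher in EPI, with 25 not called, against 7.4% and 14.3% of all entries. The median log2 fold change of the 36 was −0.12 and that of all entries −0.18. In M against ICM the only one called was TET1, and in ICM against Sph EPI it was UHRF1. In the other 8 comparisons, both of EPI with HYPO included, none of the 36 was called by edgeR, against 0.0408% to 2.91% of all entries. In these, 2 to 12 of the 36 had an unadjusted p under 0.05, as did 1402 to 3328 of the 14721 entries.

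Among partners of HELLS, CDCA7, the zinc finger protein that brings HELLS to chromatin, was also highest in EPI. CDCA7 was at 7.32 ± 0.89 in LB EPI and 8.08 ± 0.84 in Sph EPI (SD, n = 4 each), against 4.19 ± 0.997 in M (SD, n = 8), 3.41 ± 2.51 in ICM (SD, n = 7) and 1.5 ± 2.39 in TE (SD, n = 10). It rose in EPI against M and ICM, at −3.27 ± 0.65 (SE) with an edgeR adjusted p of 0.000847. Against HYPO it stood at 4.92 ± 1.62 (SE) in LB and 4.31 ± 1.63 (SE) in Sph, with adjusted p of 0.168 and 0.267. Its relative CDCA7L also rose in EPI, at −3.38 ± 1.16 (SE) with an adjusted p of 0.0380. That call was lost in 3 of 10 other settings, with an adjusted p of up to 0.382, and in 5 of 23 refits without 1 sum, and the value was −5.73 without ICM AA. ZBTB24, the third gene of this list, was at 3.07 ± 1.62 (SE) with an adjusted p of 0.198.

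Of the 5 maintenance genes tested, 2 were called as higher in M and ICM, 1 as higher in EPI and 2 were not called. DNMT1, the copying enzyme, was called in none of the 11 comparisons and kept a mean level between 7.38 and 8.38 in 6 groups and of 6.81 ± 0.10 in Sph HYPO (SD, n = 3). UHRF1, which brings DNMT1 to newly copied DNA, was near 0 in ICM and TE, with 1 count in all of ICM and 1 in all of TE. It held 171 counts in the 47 cells of M, 225 in the 25 of LB EPI and 1126 in the 48 of Sph EPI. These are raw counts, not scaled for depth, so UHRF1 was low in LB EPI too. It was called as higher in EPI than in M and ICM with an edgeR adjusted p of 0.00762, and in Sph EPI than in ICM with 0.00346; no fold is given against 1 count. In the first 4 pools both calls were lost, with adjusted p of 1.0 and 0.151. USP7, a deubiquitinase that binds DNMT1 and UHRF1, and the DNA ligase LIG1 were higher in M and ICM, at 2.15 ± 0.44 (SE) and 2.11 ± 0.63 (SE) with adjusted p of 0.00111 and 0.0182. In the first 4 pools both were lost, with adjusted p of 0.118 and 0.303, and LIG1 also with all 7 groups in 1 model, with 0.0778, and without Sph EPI E, with 0.0508.

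On the side of removal, TET1, which oxidises methylcytosine, fell from M to ICM and was lower in EPI than in M and ICM together. It was at 10.15 ± 0.67 in M (SD, n = 8), 7.51 ± 1.17 in ICM (SD, n = 7), 6.87 ± 0.62 in LB EPI and 5.76 ± 2.30 in Sph EPI (SD, n = 4 each). The difference between M and ICM was 2.37 ± 0.42 (SE) with an edgeR adjusted p of 0.00374, and that between M and ICM together and EPI was 2.33 ± 0.46 (SE) with an adjusted p of 0.000782. The first of these was lost in the last 4 pools, at 1.82 with an adjusted p of 0.0793. The steps from ICM to LB EPI and from LB EPI to Sph EPI were not called. TET3 was barely detected, with 174 counts in LB HYPO, 17 in Sph HYPO, 6 in M, 2 in Sph EPI and none in ICM, TE and LB EPI.

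The base excision enzymes split. TDG, the glycosylase that removes oxidised methylcytosine, was higher in EPI than in M and ICM, at −1.92 ± 0.52 (SE) with an edgeR adjusted p of 0.0101, and SMUG1, a uracil glycosylase, was lower, at 2.04 ± 0.70 (SE) with an adjusted p of 0.0364. EED, a core subunit of the Polycomb complex PRC2 that the study named in these cells too, was higher in M and ICM at 1.99 ± 0.36 (SE) with an adjusted p of 0.000341. Of the methyl donor genes, MAT2A, which makes S-adenosylmethionine, was higher in EPI at −1.29 ± 0.46 (SE) with an adjusted p of 0.0461, and MTR, methionine synthase, was lower at 3.97 ± 1.18 (SE) with an adjusted p of 0.0177. The SMUG1 and MAT2A calls were each lost in 11 of 23 refits without 1 sum and in 3 of 10 other settings, with adjusted p of up to 0.300 and 0.294. TDG was lost in the first 4 pools, with an adjusted p of 0.10, and MTR in the last 4 pools, with 0.131, and MTR was at 5.62 without LB EPI AO.

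DNMT3L, the catalytically inactive cofactor of DNMT3A and DNMT3B, is named here after its values were seen. It held 119 counts in M, 15 in TE and none in ICM, LB EPI, Sph EPI, LB HYPO or Sph HYPO. No reads of it were thus found in the groups where DNMT3A and DNMT3B were highest, and its entry was not checked against a genome.

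**Figure D5:**
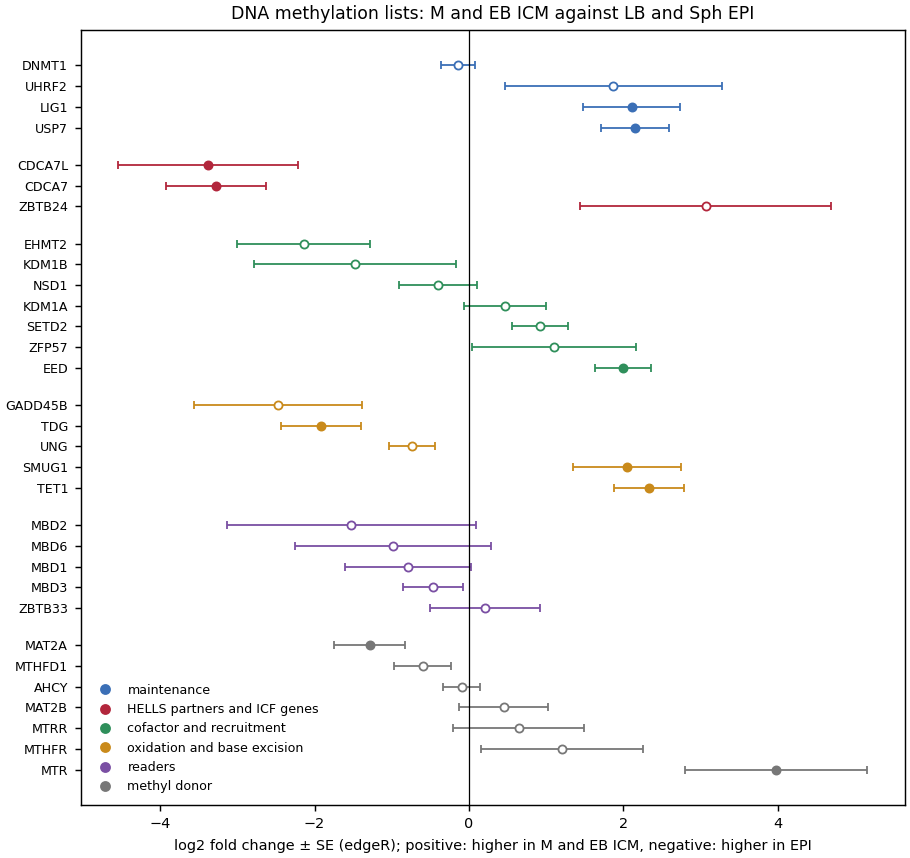
Log2 fold change ± SE from edgeR for M and ICM against LB and Sph EPI, for 31 of the 36 DNA methylation genes tested, grouped by list; negative values are higher in EPI and filled points have an adjusted p under 0.05. DNMT3L, MBD5, TET3, UHRF1 and ZBTB38 are not plotted because at most 3 counts were found in at least 1 of the 4 groups; CDCA7, CDCA7L, TDG and MAT2A are called toward EPI, and EED, USP7, LIG1, TET1, SMUG1 and MTR toward M and ICM.

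Genes of S phase, when HELLS also acts, were read beside it. Of 24 listed symbols 14 were analysed and 10 were not, MCM5 and TYMS among them, as no entry carried their symbol. Their summed level over 14 genes had group medians between 1558 CPM in Sph HYPO and 2601 CPM in ICM, with 2180 CPM in LB EPI and 2179 CPM in Sph EPI. In M and ICM against EPI, 1 of the 14, CDT1, was called, as higher in M and ICM, where 7.4% of all entries were called in that direction. In the other 10 comparisons none was called by edgeR, against 0.0408% to 6.73% of all entries. In these, 0 to 3 of the 14 had an unadjusted p under 0.05, as did 1402 to 4018 of the 14721 entries. A link of these genes to the HELLS level was not tested.

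The genes most like each member over the 41 sums were found by Pearson correlation of log2(CPM + 1), a description without a test in which all points share their libraries and stages. For DNMT3A these were FKBP8 (r = 0.72), TGFBR1 (0.67), UIMC1 (0.67), AQP11 (0.67) and LRAT (0.67). For the added entry they were FKBP8, UIMC1, STRBP, TGFBR1 and AQP11, with r from 0.67 to 0.73. TGFBR1, a TGFβ receptor, was first by Spearman's rho for DNMT3A, at 0.79. By rho LRAT had rank 2, AQP11 6, FKBP8 54 and UIMC1 993. Over the 35 sums of at least 2 cells the ranks by r were 2 for TGFBR1, 6 for FKBP8, 56 for LRAT, 116 for AQP11 and 266 for UIMC1. TGFBR1 was at 8.13 ± 0.99 in LB EPI and 7.86 ± 0.13 in Sph EPI (SD, n = 4 each) and at 1.75 ± 2.86 in TE (SD, n = 10).

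For DNMT3B the nearest genes were DPYSL2 (r = 0.77), ADGRL2 (0.75), SEPTIN6 (0.74), DYRK3 (0.74) and SEZ6L2 (0.74). DPYSL2, a microtubule-binding protein, stayed first by rho and over the 35 sums of at least 2 cells, at r = 0.80. ADGRL2, SEPTIN6, DYRK3 and SEZ6L2 had ranks 14, 10, 35 and 8 by rho. For HELLS they were RRAGD (r = 0.79), FGF19 (0.79), SLC10A4 (0.79), CHRNA3 (0.78) and GLI2 (0.78), whose mean levels outside EPI were at most 1.13. By rho these had ranks 26, 11, 83, 114 and 30, in the same order. RRAGD, a Rag GTPase, was at 6.79 ± 0.58 in LB EPI and 6.75 ± 0.43 in Sph EPI (SD, n = 4 each) and at 0.18 ± 0.48 in ICM (SD, n = 7), whereas HELLS had 8.26 ± 0.38 in ICM.

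Between the members, the correlation over the 41 sums was 0.62 for DNMT3A and HELLS, 0.51 for DNMT3B and HELLS and 0.49 for DNMT3A and DNMT3B. Within groups, Spearman's rho between DNMT3A and DNMT3B in TPM was 0.60 over 24 ICM cells, 0.50 over 25 LB EPI cells, 0.12 over 48 Sph EPI cells and −0.23 over 36 LB HYPO cells. It was −0.0037 in M, 0.11 in TE and 0.12 in Sph HYPO. Between DNMT3B and HELLS it was 0.59 in LB EPI and −0.22 in Sph EPI, and elsewhere from −0.23 in Sph HYPO to 0.13 in ICM. Between DNMT3A and HELLS it ran from −0.19 in M to 0.32 in Sph HYPO. Cells of 1 embryo share their source, and these values carry no test.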

How the data were processed

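The study profiled single cells of pig embryos with Smart-seq2 libraries of polyadenylated RNA. The authors aligned reads to Sus scrofa v10.2 with HISAT2 2.1.0, kept uniquely mapped reads, counted them on genes with HTSeq, dropped cells with few gene reads or a mitochondrial share of 0.5 or more, and removed outliers. They deposited a table of raw counts and a table of TPM values, and added 16 entries of their own. Symbols came from a gene name table that matched 11437 identifiers. Columns of all 220 cells were used.

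Groups came from the labels. The embryo was taken from the letters in each cell's name, as the labels hold no embryo number; 1 morula cell has none, and the embryos of a TE cell (E6-ER) and of an LB EPI cell (placed in AP) are less certain. Deposited counts were summed per embryo and lineage, which gave totals from 1342788 to 47016945, and were tested with edgeR 4.0.16 (glmQLFit, glmQLFTest, TMM, only the groups compared) under R 4.3.3. The SE is the size of the log2 fold change divided by the square root of F. DESeq2 1.42.0 and limma 3.58.1 (mean log2(TPM + 1) per sum, pseudocount 1) were alternatives; others were no TMM, no filter, sums of at least 2 cells, the unplaced cell as its own embryo, no cells of less certain embryo, all 7 groups in 1 model, the first or last 4 of 8 pools, the embryo as a block, the counts of both DNMT3A entries added together, and each sum left out. Tables were handled in pandas 2.3.3 and intervals in scipy 1.17.1 under Python 3.11.15, and plots drawn in matplotlib 3.10.9.

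Sums with the same letters come from the same embryo, so lineages are paired. Over 5576 genes the median correlation of their deviations from group means was 0.058 in 7 ICM and TE pairs, 0.021 in 3 LB pairs and 0.075 in 3 Sph pairs, against −0.012, −0.019 and −0.057 between other embryos. The block is not in the main model, and its values are given where they change a call.

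The members and lists were chosen with earlier results of these data known. Named are the members, DNMT1, UHRF1, TET1 and TET3, each other listed gene called in at least 1 comparison, and the 5 genes with a symbol most like each member entry. Lists of lineage markers were used to check labels; NANOG, SOX2 and POU5F1 are not analysed here. Sequences and coordinates are not given, as no genome of this build was used.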

Additional observations from a re-analysis of the deposited data

How the results depend on the processing

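Over 311 refits of the 3 genes in 11 comparisons with another tool, filter, scaling, choice of cells or model, 11 of them with the counts of both DNMT3A entries added together and the rest with the Ensembl entries, 290 kept their direction and their side of an adjusted p of 0.05, 7 lost the call, 8 gained it and 6 changed sign. Of 411 refits that left out 1 sum, 405 kept both, 3 lost the call, 1 gained it and 2 changed sign. Most results were not called in the main fit, so most refits that kept their side stayed uncalled. A call could be lost only in the smaller part that was called. Every sign change was in a comparison with no call. The rise of HELLS in EPI over ICM, and over M and ICM, and that of DNMT3B over M and ICM were called in every refit. No member changed sign without TMM, which moved the median of all entries from −0.30 to −0.10 for ICM against Sph EPI, from −0.11 to −0.01 for ICM against LB EPI and from 0.00 to 0.13 for LB EPI against LB HYPO.

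In the last 4 pools alone, DNMT3A was at 0.38 for M against ICM (added entry 0.36) and −0.29 for ICM against TE (added entry −0.20), DNMT3B at −0.078 for ICM against TE, DNMT3B at 3.61 and HELLS at 3.13 for Sph EPI against HYPO. In the first 4 pools alone, DNMT3A was at −2.15 for M and ICM against EPI and 0.059 for LB against Sph HYPO, DNMT3B at −4.92 and −4.52 for ICM against LB and Sph EPI, and HELLS at 0.044 for LB against Sph HYPO. Each set of 4 pools holds fewer cells and embryos. DESeq2 gave 3.66 for DNMT3A in LB EPI against HYPO, 4.32 for DNMT3B in Sph EPI against HYPO (adjusted p of 0.0379), −0.91 for HELLS in M against ICM and 1.73 in ICM against LB HYPO; limma gave 5.44 for DNMT3A in LB EPI against HYPO and, for HELLS, −1.32 in M against ICM, 2.80 in ICM against LB HYPO and 0.27 in LB against Sph HYPO. With the embryo as a replicate block, DNMT3B was at 2.73 and HELLS at 4.49 in LB EPI against HYPO, and the block changed no other member's call. With all 7 groups in 1 model DNMT3B was at 3.30 there. The cause of these changes was not tested.

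With 1 sum left out, DNMT3B ranged from −0.18 to 0.53 in LB against Sph EPI (negative without LB EPI AQ) and from 3.81 to 5.82 in Sph EPI against HYPO (called without Sph HYPO C). HELLS ranged from 2.83 to 4.22 in Sph EPI against HYPO (highest without Sph HYPO E) and from −1.35 to 0.40 in LB against Sph HYPO (positive without Sph HYPO E). Refits of the list genes were added after the data were seen: none of the 13 calls changed sign. EED, CDCA7 and the TET1 call against EPI held throughout. With 1 sum left out, the SMUG1 call was lost in 11 of 23 refits (M S, T, W and X, ICM AE and AG, LB EPI AO and AQ, Sph EPI C, D and F), the MAT2A call in 11 (M ER, U, V, W and X, ICM AA and AF, LB EPI AO, AP and AQ, Sph EPI F), CDCA7L in 5 (M U, ICM AF, LB EPI AP and AQ, Sph EPI C) and LIG1 in 1 (Sph EPI E). UHRF1 in M and ICM against EPI was at −0.24 with an adjusted p of 1.0 in the first 4 pools. Among other settings, CDCA7L was lost with sums of at least 2 cells (adjusted p of 0.0574), with all 7 groups in 1 model (0.0904) and in the last 4 pools (0.382), SMUG1 with all 7 groups (0.300) and in the first (0.270) and last 4 pools (0.181), and MAT2A without TMM (0.0519), by limma (0.0785) and in the first 4 pools (0.294).

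Counts of called entries depended on the tool: in M against ICM 361 in edgeR and 1205 in DESeq2, in ICM against LB EPI 428 and 1370, in LB against Sph EPI 23 and 828, in ICM against Sph EPI 990 and 2050, in LB EPI against HYPO 283 and 1369, in Sph EPI against HYPO 167 and 1446, in ICM against LB HYPO 309 and 1097, in LB against Sph HYPO 24 and 336, and in the interaction 6 and 540. ICM against TE gave 111, from 9 in the last 4 pools to 865 with all groups in 1 model, and M and ICM against EPI 3202, down to 1979 in the first 4 pools. Both HYPO groups and both EPI groups hold at most 5 embryos, and 3 Sph HYPO sums limit every comparison with them.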
